A study of Homo sapiens with 6 samples.

Results

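To examine the genes that mark an intestinal cell, 8 genes were followed in SW480 cells after knockdown of ZEB1: the transcription factors CDX1, CDX2, HNF4A, KLF4 and KLF5 and the epithelial markers VIL1, CDH17 and LGALS4. They were chosen by name, as known regulators and markers of the intestinal epithelium, with earlier results of these data known. Each was matched to the row of the count tables with the same gene name. Of the 8 genes, 7 were matched among the 32029 genes with a row, and 5 passed the filter on low counts among 14996 genes tested. CDX1 had no row under its name or Ensembl identifier and was not analysed here. The tables hold only genes with at least 1 read over the 6 cultures.

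SW480 is a human colorectal adenocarcinoma line. All 6 cultures were of this line, 3 transfected with a control siRNA (siNC in the labels, called siControl here, genotype WT) and 3 with an siRNA against ZEB1 (siZEB1, genotype ZEB1 knockdown), and RNA was taken 48 h after transfection. ZEB1 is a zinc finger repressor that binds E-boxes in epithelial genes. The sources used here do not give the siRNA sequences or how many siRNAs were used, and all values are of 1 cell line. Total counts ranged from 19040636 to 22357633 per culture. Levels are CPM, counts scaled to library size by TMM, and log2FC is the log2 fold change of siZEB1 over siControl, given with its standard error (SE) from edgeR's quasi-likelihood test. The test is two-sided, and p-values were adjusted by Benjamini-Hochberg over all genes tested. A gene was called where its adjusted p was under 0.05.

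The intestinal epithelium is specified and maintained by a small set of transcription factors. CDX1 and CDX2 are caudal-type homeobox factors that set hindgut identity, and HNF4A is a nuclear receptor of the gut and liver that acts with them on genes of absorptive cells. KLF4 and KLF5 are zinc finger factors of one family with different places in the crypt, since KLF5 is found in dividing crypt cells and KLF4 in differentiating cells. VIL1 encodes villin, an actin-bundling protein of microvilli, CDH17 encodes the liver-intestine cadherin, and LGALS4 encodes galectin-4, a carbohydrate-binding protein of the gut lining. CDH17 and VIL1 are known targets of CDX2 in intestinal cells. In colorectal tumors, CDX2 is used as a marker of intestinal origin, and its loss is associated with poor differentiation.

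In the siZEB1 cultures, CDX2 and HNF4A fell, VIL1 rose, and KLF4 and KLF5 were not called, while CDH17 and LGALS4 had too few reads to be tested. Of the 5 genes tested, 1 was higher and 2 were lower, and 2 were not called. Over all genes tested, 40.2% were called, 19.0% as higher and 21.2% as lower. With 5 genes, nothing is read from the difference between these shares. The groups did not overlap in CPM at 4 of the 5, against 49.5% of all genes tested. Under a stricter rule, a 1.5-fold change with unadjusted p under 0.001, met by 11.2% of genes tested, CDX2, HNF4A and VIL1 were called and KLF4 and KLF5 were not. Each of the 5 had at least 75 reads in every culture, so none passed the filter through a single group. In RNA from whole cultures, fewer cells with a transcript and less of it per cell cannot be told apart.

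**Figure D1:**
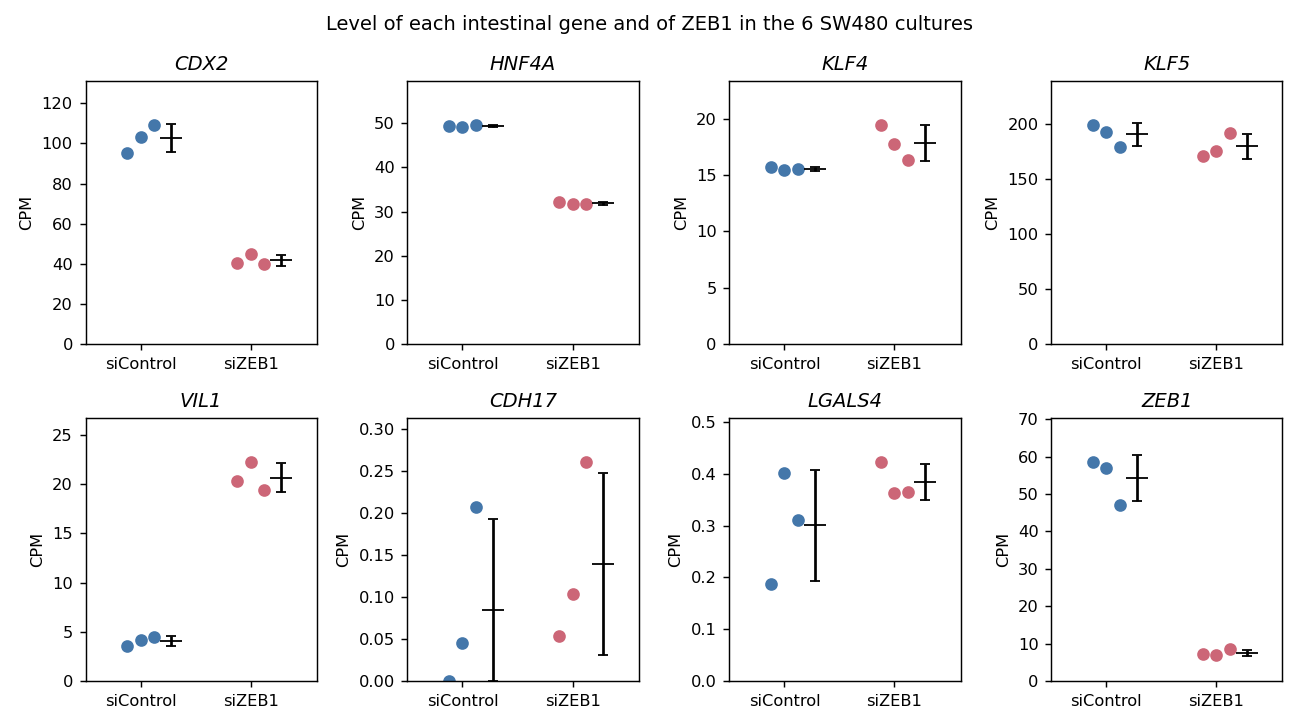
Level in CPM (y axis, linear, from 0) of the 7 intestinal genes with a row and of ZEB1 in the 3 siControl and the 3 siZEB1 cultures. Each point is 1 culture, and the black bar is the mean with the SD (n = 3), cut at 0 for CDH17. CDX2, HNF4A and ZEB1 lie lower under siZEB1 and VIL1 higher, with no overlap between the groups.

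The targeted gene was measured first as a check of the labels. ZEB1 had 1247, 1276 and 908 reads under siControl and 136, 132 and 162 under siZEB1, a log2FC of -2.85 (SE 0.11, adjusted p = 4.85e-12) in edgeR's test, and was lower in each siZEB1 culture than in any siControl culture. As a check of the cell type, KRT8, a keratin of simple epithelia, was at 3455 ± 160 CPM under siControl and 3534 ± 200 CPM under siZEB1 (SD, n = 3 each). Of 7 epithelial markers, 5 were higher and 0 lower under siZEB1 at an adjusted p under 0.05. DESeq2 gave the same counts, and all 7 fold changes were above 0, so none was lower at an unadjusted p either. Of all genes tested, 19.0% were called higher. EPCAM, the epithelial cell adhesion molecule, rose by 3.05 (SE 0.062) on the log2 scale and CDH1, encoding E-cadherin, by 4.01 (SE 0.14). CDH1 was low under siControl, with 39, 54 and 26 reads, and had 594, 540 and 606 under siZEB1. KRT19 and CLDN3 rose by 1.62 and 0.69, and CLDN4 by 0.17 (adjusted p = 0.0294, and up to 0.182 when 1 culture was left out). Of 12 markers of leukocytes, endothelium, fibroblasts, liver, red cells and beta cells, 7 had a row, and their summed level was 11.3 to 12.97 CPM under siControl and 9.72 to 11.9 CPM under siZEB1. Most of it was COL1A1, with 143 to 227 reads, 5 of the markers had no row, and 0 of the 3 that were tested were called by edgeR's test or reached an unadjusted p under 0.05.

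Sequences of the promoters were taken from RefSeq (GRCh38.p14, windows of equal length around the start site), in which 5 of the 8 genes were matched: CDX2, HNF4A, KLF4, KLF5 and LGALS4. The windows of CDX2 and HNF4A are shown because these factors fell. Both strands were searched for the E-box letters CACCTG, to which ZEB1 binds, and for the related TACCTG, with matches in capitals. CACCTG is found in 20.6% and TACCTG in 9.68% of 27305 promoters of the same length. The HNF4A window holds 1 match to CACCTG, at base -202 from the start site, whereas the CDX2 window holds none of either. The shorter core CACCT, part of CACCTG, is in 51.5% of promoters and not in that of CDX2.

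CDX2: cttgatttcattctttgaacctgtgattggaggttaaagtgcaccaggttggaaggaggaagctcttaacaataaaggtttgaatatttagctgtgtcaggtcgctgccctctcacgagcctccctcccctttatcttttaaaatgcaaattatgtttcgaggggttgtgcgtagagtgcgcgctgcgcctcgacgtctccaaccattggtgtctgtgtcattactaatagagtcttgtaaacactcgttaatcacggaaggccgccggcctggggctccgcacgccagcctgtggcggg

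HNF4A: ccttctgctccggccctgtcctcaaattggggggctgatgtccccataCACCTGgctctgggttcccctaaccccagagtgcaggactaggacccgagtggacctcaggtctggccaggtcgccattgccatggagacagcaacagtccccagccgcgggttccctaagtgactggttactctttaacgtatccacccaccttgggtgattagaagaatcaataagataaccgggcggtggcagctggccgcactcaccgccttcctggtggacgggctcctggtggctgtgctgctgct

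The CDX2 window lies at chr13:27969266-27969565 and the HNF4A window at chr20:44355449-44355748, on the minus and plus strands. In GENCODE 29 the CDX2 gene extends further upstream, to base 27971139, and the HNF4A gene starts at base 44355700, within its window. Other annotated starts of these genes were not searched. Of the remaining windows, those of KLF4 and KLF5 hold neither motif, and that of LGALS4 holds 1 match to CACCTG. A match is a description of letters, and none of these promoters was assayed in the data used here.

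CDX2 (ENSG00000165556, chromosome 13 from 27962137 to 27971139, minus strand) was the transcription factor of the group that changed the most. Its counts were 2023, 2312 and 2106 under siControl against 760, 862 and 769 under siZEB1. The level was 95.1, 103 and 109 CPM under siControl and 40.3, 44.8 and 40.2 CPM under siZEB1, with every siControl culture far above every siZEB1 culture. The mean fell by 59.3%, from 103 ± 7.08 to 41.8 ± 2.66 CPM (SD, n = 3 each), a log2FC of -1.30 (SE 0.075, 95% confidence interval from -1.45 to -1.14, adjusted p = 8.28e-10) in edgeR's test. Among the 14996 genes tested, the value of CDX2 ranked 218 from the lowest, and 2.77% had a larger change in either direction. Fits that each lacked 1 culture gave values between -1.35 and -1.25.

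HNF4A (ENSG00000101076, chromosome 20 from 44355700 to 44434596, plus strand) fell less than CDX2. It had 1051, 1102 and 957 reads under siControl and 608, 609 and 608 reads under siZEB1. These are 49.4, 49.2 and 49.6 CPM and 32.2, 31.7 and 31.8 CPM, with no overlap between the groups. The SD over the 3 cultures was 0.217 CPM under siControl and 0.285 CPM under siZEB1. So small a spread over 3 cultures is not read as a trait of the gene. The SE of its fold change, 0.069, was close to that of CDX2, 0.075. The mean fell by 35.5%, a log2FC of -0.63 (SE 0.069, 95% confidence interval from -0.78 to -0.49, adjusted p = 1.58e-06) in edgeR's test, and 16.5% of genes tested changed more in either direction. The confidence intervals of CDX2 and HNF4A do not meet. A test of the difference between them was not run.

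KLF4 (ENSG00000136826, chromosome 9 from 107484852 to 107490482, minus strand) had 335, 345 and 299 reads under siControl and 367, 341 and 312 reads under siZEB1. Scaled to CPM, these were 15.8, 15.4 and 15.5 under siControl and 19.4, 17.7 and 16.3 under siZEB1. Although the siZEB1 cultures lay above the siControl cultures without overlap, the nearest cultures of the groups were close, at 16.3 and 15.8 CPM, and the difference was not called (log2FC 0.20, SE 0.093, 95% confidence interval from -0.00047 to 0.39, adjusted p = 0.105 in edgeR's test). The interval reaches from no change to a rise of 0.39 on the log2 scale.

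KLF5 (ENSG00000102554, chromosome 13 from 73054976 to 73077542, plus strand) was the most abundant gene of the group. It had 4234, 4319 and 3455 reads under siControl and 3224, 3378 and 3675 reads under siZEB1, or 199, 193 and 179 CPM and 171, 176 and 192 CPM. The groups overlapped, as the third siZEB1 culture lay above the third siControl culture. The log2FC was -0.085 (SE 0.064, 95% confidence interval from -0.22 to 0.050, adjusted p = 0.312) in edgeR's test, so a fall of more than 0.22 on the log2 scale is outside the interval, whereas smaller changes were not separated from the spread between cultures.

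VIL1 (ENSG00000127831, chromosome 2 from 218419092 to 218453295, plus strand) moved opposite to CDX2 and HNF4A. It had 75, 94 and 87 reads under siControl and 384, 429 and 371 reads under siZEB1. In CPM these were 3.53, 4.20 and 4.51 against 20.3, 22.3 and 19.4, with every siZEB1 culture far above every siControl culture. The mean rose 5.07-fold, from 4.08 ± 0.504 to 20.7 ± 1.49 CPM (SD, n = 3 each), a log2FC of 2.34 (SE 0.12, 95% confidence interval from 2.09 to 2.59, adjusted p = 1.69e-10) in edgeR's test. Its rank was 40 from the highest of the 14996 genes tested, and leaving out each culture in turn gave values between 2.25 and 2.41. In GENCODE 29, exons of USP37 on the opposite strand cover 44.0% of the exonic bases of VIL1, and the sources used here do not say whether the counting used the strand. USP37 itself had 541, 641 and 385 reads under siControl and 473, 432 and 630 under siZEB1, and the groups overlapped (log2FC 0.12, SE 0.13, adjusted p = 0.522). The part of USP37 reads in the VIL1 counts was not tested. No exonic bases of the other 6 genes with a row overlap another gene.

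**Figure D2:**
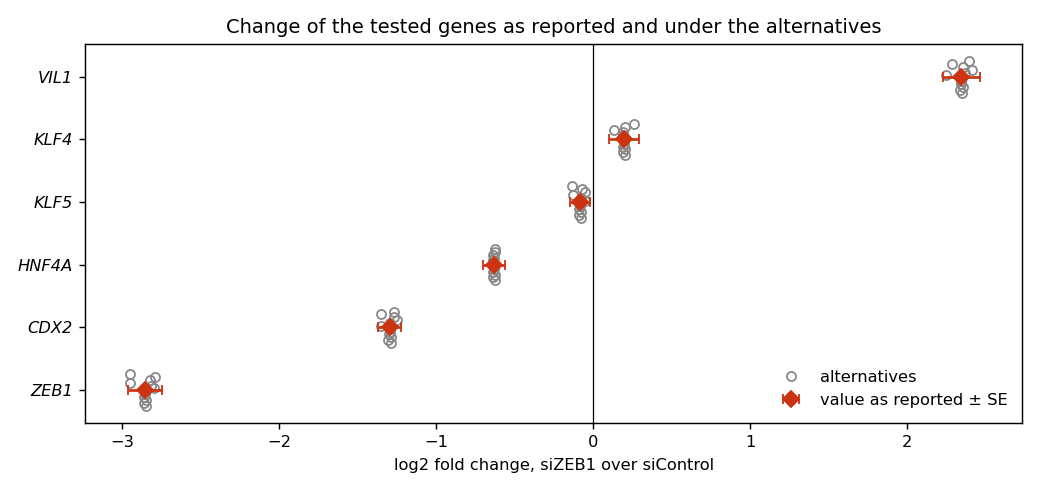
Log2 fold change of siZEB1 over siControl (x axis) for the 5 intestinal genes tested and for ZEB1. Filled diamonds are the values as reported with their SE, and open circles are the same comparison with another scaling, filter, test or replicate block, or with 1 culture left out. All circles lie on the same side of 0 as their diamond, and those of VIL1 span 2.25 to 2.41.

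The remaining pair of epithelial markers was near the limit of detection in both groups. CDH17 (ENSG00000079112, chromosome 8 from 94127171 to 94217303, minus strand) had 0, 1 and 4 reads under siControl and 1, 2 and 5 reads under siZEB1. The third culture held the most reads in each group, and a culture with 0 of 21230794 reads allows up to 0.141 CPM, the level of 3 reads. In all, CDH17 had 5 reads under siControl and 8 under siZEB1, a ratio per read sequenced of 1.75 (95% exact interval from 0.504 to 6.79). LGALS4 (ENSG00000171747, chromosome 19 from 38801671 to 38813364, minus strand) had 4, 9 and 6 reads under siControl and 8, 7 and 7 reads under siZEB1. These are 19 and 22 reads, a ratio of 1.27 (95% exact interval from 0.654 to 2.47), and the cultures of the groups overlapped. Two-sided exact permutation tests on CPM gave p = 0.5 for CDH17 and p = 0.3 for LGALS4, where 3 cultures against 3 cannot go below 0.1. The intervals cover counting error only. Thus a change of the size measured for VIL1 was outside the LGALS4 interval but within that of CDH17, for which a change was not detectable at this depth.

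To compare levels between genes, CPM was divided by the exonic length in GENCODE 29, giving RPKM, the CPM per kilobase of exon. In siControl cells the order of levels was KLF5 (48.9 ± 2.61 RPKM), CDX2 (24.9 ± 1.72), HNF4A (6.76 ± 0.0297), KLF4 (4.25 ± 0.0489), VIL1 (0.590 ± 0.0728), LGALS4 (0.114 ± 0.0406) and CDH17 (0.0216 ± 0.0280; SD, n = 3 each). In siZEB1 cells the order was KLF5 (46.1 ± 2.86 RPKM), CDX2 (10.1 ± 0.646), KLF4 (4.87 ± 0.429), HNF4A (4.36 ± 0.0390), VIL1 (2.99 ± 0.216), LGALS4 (0.145 ± 0.0129) and CDH17 (0.0357 ± 0.0278). HNF4A and KLF4 changed places. The level of KLF5 was 1.97 times that of CDX2 in siControl cells and 4.55 times in siZEB1 cells. Neighbours in both orders did not overlap between their 3 cultures, but LGALS4 and CDH17 rest on fewer than 10 reads in each culture, and KLF4 exceeded HNF4A by 1.12 times only. These lengths cover all annotated exons, so levels are approximate for genes whose transcripts use few of them. The length of VIL1 includes the 44.0% of its exonic bases shared with USP37, so its level may depend on the unknown strand setting.

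**Figure D3:**
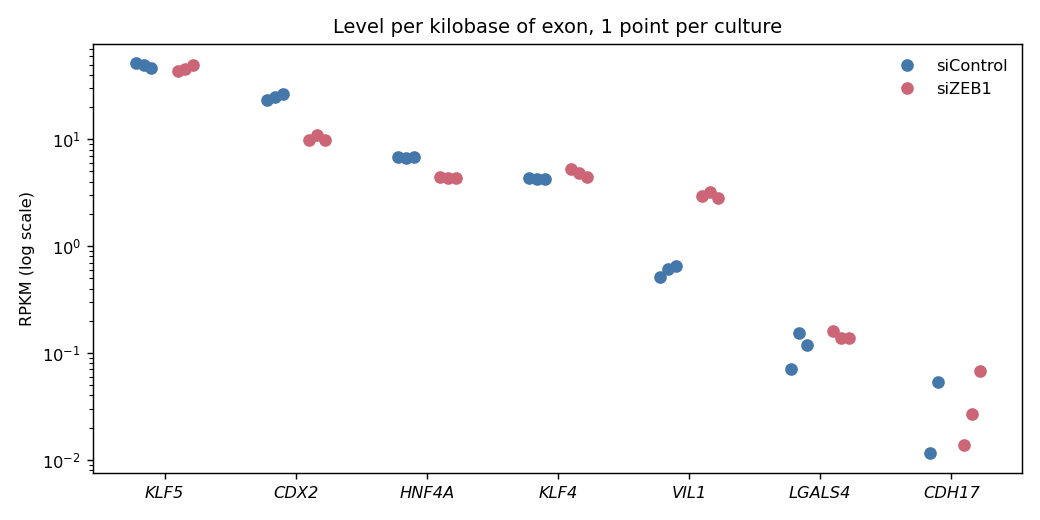
Level per kilobase of exon (RPKM, log y axis) of the 7 intestinal genes with a row, ordered by their level in siControl cells, with 1 point per culture. The siControl culture without a CDH17 read is not drawn. VIL1 moves from 0.590 to 2.99 RPKM on average, toward the levels of HNF4A and KLF4, while LGALS4 and CDH17 stay below 0.2 RPKM. The level of VIL1 includes exonic bases shared with USP37 on the opposite strand.

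As a description of likeness, log2 CPM (with a pseudocount of 0.5 CPM) of each called gene was correlated over the 6 cultures with that of 13196 other genes at a mean of at least 1 CPM. The 6 cultures form 2 groups, so that any gene with a clear change correlates with these, and 185 to 275 genes reached a Pearson's r of at least 0.99 with each. The genes closest to CDX2 were HOXB8, MRPS33 and B4GALT7 (r of 0.9997, 0.9992 and 0.9991). Those closest to HNF4A were USP39, ALKBH5 and PRKACA (r of 0.9999, 0.9998 and 0.9997), and those closest to VIL1 were ATP1B3, WIPI2 and MDC1 (r of 0.9996, 0.9993 and 0.9991).

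Among 18 other transcription factors of the intestinal epithelium, 17 had a row and 9 were tested, of which 1 was higher and 3 lower under siZEB1 in edgeR's test. Their median log2 fold change was -0.36, beside -0.0055 over all genes tested. Of all genes tested, 40.2% were called, 19.0% as higher and 21.2% as lower. With 9 genes, no shift of the list is read from its counts or median. GATA6, a zinc finger factor of endoderm, fell from 105, 116 and 105 reads to 50, 39 and 45 reads (log2FC -1.14, SE 0.17, adjusted p = 3.4e-05). PRDM1, a repressor of the immature gut, fell as well (log2FC -0.62, adjusted p = 0.00604). VDR, the vitamin D receptor, rose by 0.25 (adjusted p = 0.0301), a call that was lost without a filter, with the replicate block and in 5 of the 6 fits that left out 1 culture, with adjusted p up to 0.112. TCF7L2, the Wnt effector of crypts and the most abundant of the list, was at 60.2 ± 4.17 and 59.7 ± 2.27 CPM and was not called (adjusted p = 0.905). GATA4, ELF3 and ISX had 10 reads or fewer in every culture. FOXA2, a forkhead factor of endoderm, had 2, 1 and 0 reads under siControl and 13, 5 and 15 under siZEB1, and FOXA1 had 4, 3 and 2 reads under siControl and 0 in each siZEB1 culture. These pairs of values were singled out after they were seen, and both genes fell below the filter.

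Of 40 genes of the brush border and of absorptive enterocytes, 30 had a row and only 12 were tested. Of these, 1 was higher and 4 were lower, with a median of -0.34. Both the count and the median include ANPEP and MYO1A, which passed the filter on their siControl reads alone. With at least 10 reads required in every culture, 2 genes were lower. No shift of the list is read from its median. USH1C, encoding harmonin, a scaffold of the links between microvilli, fell from 173, 207 and 170 reads to 63, 53 and 59 reads (log2FC -1.51, SE 0.14, adjusted p = 2.45e-07). EPS8, which caps and bundles actin in microvilli, fell as well (log2FC -0.92, SE 0.14). EZR, encoding ezrin, which ties actin to the apical membrane, rose from 680 ± 15.3 to 884 ± 26.1 CPM (SD, n = 3 each), by 0.38 on the log2 scale (SE 0.050). The other calls, named after their values were seen, rested on few reads and passed the filter on their siControl reads. The peptidase gene ANPEP had 13, 18 and 15 reads under siControl and 4, 1 and 2 under siZEB1, and the brush border myosin gene MYO1A had 16, 17 and 15 and 3, 2 and 5 reads. Genes of the list below the filter had at most 20 reads in any culture, and ALPI, FABP1, FABP2, APOA1, MTTP, CEACAM5 and CEACAM6 had 3 or fewer. LCT, encoding lactase, was also below the filter, and its groups did not overlap, at 7, 0 and 4 reads under siControl and 9, 20 and 9 under siZEB1. Those of ALPI did not overlap in CPM either, at 0, 0 and 1 reads and 1, 1 and 2 reads. Of all genes tested, 49.5% did not overlap. The sodium-proton exchanger gene SLC9A3 had 69 to 91 reads per culture and the keratin gene KRT20 had 2 to 20, and neither was called. These genes were singled out after their values were seen.

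Of 22 genes of secretory lineages, 16 had a row and 4 were tested, of which 2 were higher and 1 was lower, with a median of 0.17. MUC13, a transmembrane mucin of the gut surface, fell from 767, 764 and 627 reads to 237, 282 and 202 reads (log2FC -1.44, SE 0.10, adjusted p = 1.21e-08). PAX6, a factor of endocrine cells, rose by 0.26 (adjusted p = 0.0293), a call lost in 4 of the 6 fits that left out 1 culture, with adjusted p up to 0.0973. FCGBP, a goblet cell gene named after its values were seen, had 8, 10 and 8 reads under siControl and 19, 19 and 23 under siZEB1, and passed the filter on its siZEB1 reads. Of 15 genes of crypt stem cells, 12 were tested, of which 7 were lower and 1 was higher, with a median of -0.30. Of all genes tested, 21.2% were called lower and 19.0% higher. Under the rule of a 1.5-fold change and unadjusted p under 0.001, 2 of the crypt genes were lower. No shift of the secretory or crypt list is read from its counts or median. TNFRSF19, a receptor found on stem cells, fell (log2FC -1.23, SE 0.10), as did MYC (-0.64) and the Wnt inhibitors ZNRF3, NKD1 and RNF43 (-0.44, -0.38 and -0.31). ASCL2, a basic helix-loop-helix factor of stem cells, rose by 0.81 (SE 0.21, adjusted p = 0.00563). The 4 tested genes not called, AXIN2, CD44, EPHB3 and RGMB, had log2FC of 0.11, 0.06, 0.02 and -0.13. They were named after their values were seen. LGR5, the stem cell receptor, had 18, 16 and 19 reads under siControl and 1, 8 and 3 under siZEB1. It was named after its values were seen and passed the filter on its siControl reads, and with at least 10 reads required in every culture 6 genes of the list were lower.

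The relatives of KLF4, KLF5, LGALS4 and VIL1 were examined in the same way. Of all genes tested, 21.2% were called lower and 19.0% higher. No shift of a family is read from the counts and medians that follow. Of 17 genes of the KLF family, 14 were tested, and 5 were lower and 0 higher in edgeR's test, with a median of -0.19. DESeq2 gave the same counts, and 0 were higher at an unadjusted p under 0.05. That 0 rests on a narrow margin, as KLF4 had an unadjusted p of 0.0505 in edgeR's test. Of the 14, which include KLF4 and KLF5, only KLF4 and KLF10 had values above 0. KLF12, KLF9, KLF3 and KLF7 fell, with log2FC of -0.72, -0.59, -0.54 and -0.20. KLF7 was no longer called in 4 of the 6 fits without 1 culture, with adjusted p up to 0.174. KLF14, at 4 to 41 reads per culture, was the remaining call and passed the filter on its siControl reads. Of 12 galectins, 4 were tested and 3 were lower, LGALS8, LGALS3 and LGALS1, with log2FC of -0.48, -0.47 and -0.26. These 3 were the galectins at over 10 CPM, whereas LGALS4 was below the filter. In the villin and gelsolin family, VIL1 included, 7 of 8 genes were tested. Only VIL1 was higher and only GSN, encoding gelsolin, was lower, from 120 ± 6.04 to 85.9 ± 5.61 CPM (SD, n = 3 each, log2FC -0.48). The most abundant relative, FLII, was at 214 ± 12.5 and 230 ± 11.5 CPM and was not called (adjusted p = 0.197).

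**Figure D4:**
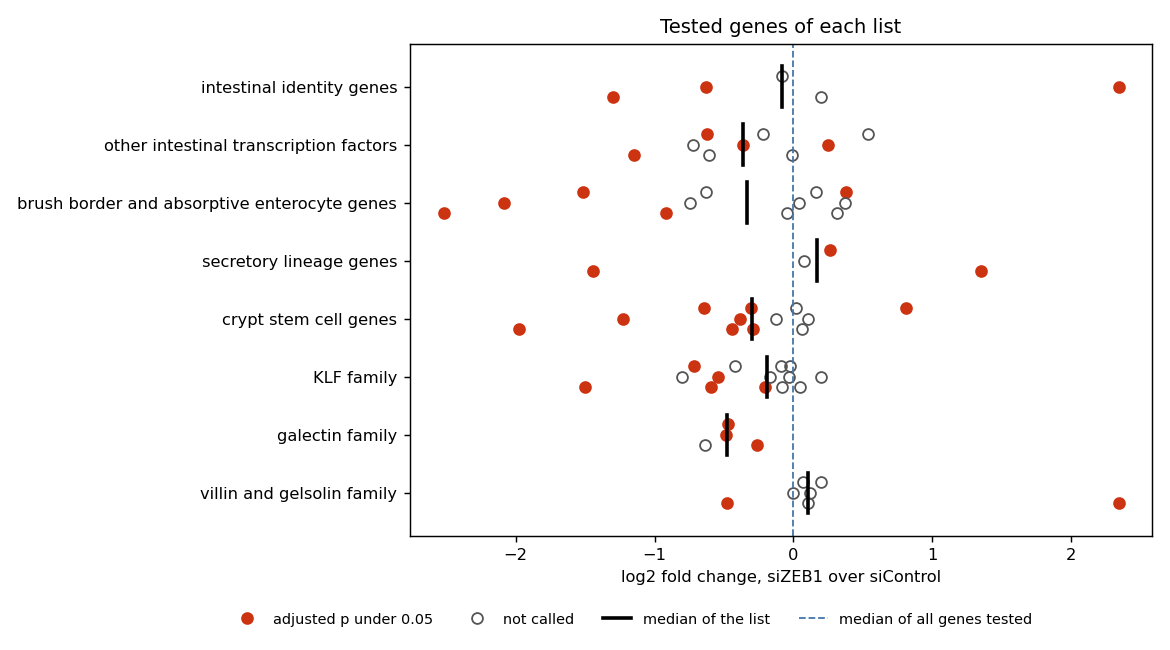
Log2 fold change of siZEB1 over siControl (x axis) for each tested gene of the 8 lists, 1 point per gene, filled where the adjusted p was under 0.05. Black bars are the medians of the lists and the dashed line is the median of all genes tested, -0.0055. Of the transcription factor list, 3 called genes lie below 0 and 1 above, and of the brush border list 4 and 1. Over all genes tested, 21.2% were called lower and 19.0% higher. Among the 4, ANPEP and MYO1A passed the filter on their siControl reads alone. VIL1, in the first and last rows, lies at 2.34.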

How the data were processed

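Total RNA of 6 SW480 cultures, 3 transfected with siControl and 3 with siZEB1, was sequenced on an Illumina instrument. The submitters' processing notes name Trimmomatic, HISAT2, SAMtools, featureCounts and hg38, without versions or roles. The annotation and strand setting are not given in the sources used here. The authors deposited whole-number read counts per Ensembl gene for each culture, without normalization, under a header that names counts.

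Groups and replicate numbers were taken from the sample titles. Genes were kept by filterByExpr (minimum count 10), scaled by TMM and tested with edgeR 4.0.16 (glmQLFit, glmQLFTest) in R 4.3.3 on all 6 cultures without covariates. The SE is the fold change over the root of the F statistic. The fit was tested on simulated data. DESeq2 1.42.0, other scalings and filters, a replicate block, each culture left out and another call rule were alternatives. Of 32029 genes, 31059 were found in GENCODE 29, which gave coordinates and exon lengths. Cultures of a group were compared by chi-square per degree of freedom, which was 2.27 to 9.58, above sampling noise for every pair. The genes followed and the 9 other lists were compiled by hand with earlier results of these data known. From each other list, the most abundant gene and up to 6 called genes with the largest change and a mean of at least 1 CPM were named, and EPHB2, the seventh in size among crypt genes, was left out by this rule. Some genes of the transcription factor list are counted but not reported here by name.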

Additional observations from a re-analysis of the deposited data

How the results depend on the processing

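The calls of CDX2, HNF4A and VIL1, the absence of a call for KLF4 and KLF5, and their directions were the same under all 13 alternatives, as was the call of ZEB1. Over these, the log2 fold change ran from -1.35 to -1.25 for CDX2, from -0.64 to -0.62 for HNF4A, from 2.25 to 2.41 for VIL1, from 0.13 to 0.26 for KLF4 (adjusted p from 0.0525 to 0.379) and from -0.13 to -0.050 for KLF5. With the replicate number as a block, CDX2 was at -1.30, HNF4A at -0.63 and VIL1 at 2.34, and 2289 genes were higher and 2679 lower. Same-numbered cultures did not deviate together (Pearson's r of -0.078, -0.12 and -0.276), and 0 of 6 cultures were closest to their own number. The block left 0 other intestinal transcription factors and 1 secretory gene higher.

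When calls needed a 1.5-fold change and unadjusted p under 0.001, 678 genes were higher and 1004 lower over all genes. Under that rule 0 other intestinal transcription factors, brush border, secretory or crypt stem cell genes were higher, and 1 other intestinal transcription factor, 2 crypt stem cell genes, 2 KLF genes, 0 galectins and 0 genes of the villin and gelsolin family were lower. Without a filter, 2 brush border genes were higher. With at least 10 reads in every culture, which removes genes, 1 secretory gene was higher and 2 brush border genes were lower. With 1 culture left out in turn, the count of other intestinal transcription factors higher ran from 0 to 2, of secretory genes higher from 1 to 3 and of KLF genes lower from 3 to 6, and TCF7L2, which was not called, ran from -0.071 to 0.017. Without siZEB1 replicate 1 or 3 the count of other intestinal transcription factors higher was 0, without siControl replicate 1 it was 2, without siZEB1 replicate 3 the count of secretory genes higher was 1, and without siZEB1 replicate 1 that of KLF genes lower was 3. The cause was not tested. Depth limits CDH17 and LGALS4, which were not called without a filter either (adjusted p = 0.692 and 0.733 in edgeR's test).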
